A study of Mus musculus with 2 samples.

Results

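Integrin transcripts were examined by cell class in the repair tissue of healing mouse femora. The genes were Itga5, Itga6, Itga10, Itga11, Itgav, Itgb1, Itgb3, Itgb5, Itgam and Itgb2, 10 of the 32285 genes in each of 2 count matrices. They were chosen by symbol, and each symbol was found in both matrices. Of these, 8 encode subunits of receptors for extracellular matrix, and 2, Itgam and Itgb2, encode the subunits of a leukocyte receptor.

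To describe the cells of a fracture callus, scRNA-seq was performed on calluses of wild-type C57BL/6J mice, labelled wt, after a femoral fracture (male, 12 weeks old per the study's methods). The design covered calluses taken 10 days (5 mice) and 20 days (5 mice) after fracture, and the labels name no other allele or agent. Neither of the 2 libraries, MGJ and MGJ2, has a day in its labels, and cells of different mice carry no mark of their own. No group was therefore given to either library, their values stand beside each other, and no change over time was computed. No replicate libraries could be assigned from the labels, so no test, SD or p-value was computed across samples, and every interval given is a 95% interval that covers counting error only.

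An integrin is a pair of 1 alpha and 1 beta subunit that spans the cell membrane, binds matrix or a counter-receptor outside the cell and connects to the actin cytoskeleton inside it. Itgb1 is the common partner of many alpha subunits, among them Itga5 (a fibronectin receptor), Itga6 (a laminin receptor) and the collagen receptors Itga10 and Itga11. Itgav pairs with Itgb1, Itgb3 or Itgb5 to bind RGD-containing ligands such as vitronectin and osteopontin, and the pair of Itgav and Itgb3 is known as the adhesion receptor of osteoclasts. Itgam and Itgb2 form Mac-1 (CD11b/CD18), with which neutrophils, monocytes and macrophages adhere and take up complement-coated particles. In cartilage, integrins hold chondrocytes to type II collagen and fibronectin.

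Promoter sequences are shown for 3 genes with different orders of cell classes. The collagen receptor Itga10 was high in chondrocyte-like and osteoblast-like cells. The collagen receptor Itga11 was highest in tendon fibroblast-like and fibroblast-like cells of MGJ, and Itgam was highest in myeloid cells. All 10 gene identifiers matched GENCODE M21 protein-coding genes. Each sequence is from RefSeq (GRCm38.p6) and runs from 250 bases before to 50 bases after the start site of the gene. Capitals mark the motifs searched on both strands, which were an ETS core (GAGGAA), a RUNX motif (TGTGGT), a GC box (GGGCGG), an AP-1 motif (TGANTCA) and a SOX motif (ACAAT).
Itga10, chr3:96645334-96645633, plus strand: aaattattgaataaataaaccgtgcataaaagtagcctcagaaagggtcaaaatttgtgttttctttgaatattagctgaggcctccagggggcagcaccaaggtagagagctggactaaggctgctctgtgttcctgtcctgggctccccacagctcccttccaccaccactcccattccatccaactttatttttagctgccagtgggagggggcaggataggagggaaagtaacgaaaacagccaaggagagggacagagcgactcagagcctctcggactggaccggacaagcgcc
Itga11, chr9:62677605-62677904, plus strand: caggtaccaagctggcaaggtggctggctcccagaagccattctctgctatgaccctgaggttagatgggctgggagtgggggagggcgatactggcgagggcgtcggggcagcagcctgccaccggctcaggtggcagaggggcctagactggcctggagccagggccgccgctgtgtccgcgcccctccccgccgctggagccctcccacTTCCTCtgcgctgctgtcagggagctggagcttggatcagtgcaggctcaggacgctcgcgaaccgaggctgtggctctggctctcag
Itgam, chr7:128062390-128062689, plus strand: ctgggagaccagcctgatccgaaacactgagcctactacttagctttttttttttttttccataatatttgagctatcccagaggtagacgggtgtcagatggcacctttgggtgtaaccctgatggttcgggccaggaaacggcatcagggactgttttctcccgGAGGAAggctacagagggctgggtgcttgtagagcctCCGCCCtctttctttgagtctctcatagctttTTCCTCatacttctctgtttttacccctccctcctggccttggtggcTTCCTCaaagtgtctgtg
No motif of the search was found in the Itga10 window, which held 6 CG pairs. The Itga11 window held 16 CG pairs and 1 ETS core, at position -38 from the start site. The Itgam window held 6 CG pairs, the ETS core at positions -84, -15 and 32, and 1 GC box at position -47. Among the 32851 promoters of the same length in the table, the median was 7 CG pairs, and 28.3% held the ETS core, 16.8% the RUNX motif, 35.7% the GC box, 7.81% the AP-1 motif and 31.0% the SOX motif. A match of this kind describes letters only. The table held promoters for 7 of the 10 genes.

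Library MGJ held 14295 barcodes and 135304426 UMIs (unique molecular identifiers, 1 per captured RNA molecule), and library MGJ2 held 8009 barcodes and 61130834 UMIs. After barcodes with few genes, many mitochondrial UMIs or a doublet call were removed, 13320 and 7584 cells were kept, with 19 barcode sequences found in both libraries. Doublet calls made up 1.04% and 2.84% of the barcodes tested, below the expected 10.8% and 6.24%, so doublets remained among the kept cells. Cells were clustered and named from marker genes, which gave 18 classes of at least 50 cells in library MGJ (8580 named cells) and 14 in library MGJ2 (7283 named cells). Names end in "-like" for this reason, and 4740 cells of MGJ and 301 of MGJ2 had no name. Support was uneven, since the large chondrocyte-like, monocyte-like and some neutrophil-like clusters had none or few of their own markers among their 10 leading genes. The median UMIs per cell of a class ran from 1883.5 to 21742 in MGJ and from 2343 to 34310 in MGJ2. Levels are given in CPM, the UMIs of a gene per 1000000 UMIs of a class. They are not scaled to transcript length, so they were compared between classes for 1 gene and not between genes.

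Each of the 10 genes had its own order of cell classes, taken over the classes of at least 50 cells. Matrix-binding integrins were highest in chondrocyte-like, other stromal, endothelial-like or osteoclast-like cells, and the leukocyte pair was highest in neutrophil-like and monocyte-like cells, with 2 exceptions in MGJ2, where Itga5 was highest in monocyte-like and Itgb3 in plasmacytoid dendritic-like cells. Itga11 was the most restricted gene of library MGJ2, at 0 UMIs in 10 of 14 classes. Itga5, Itgav, Itgb1, Itgb3, Itgam and Itgb2 had UMIs in every class of both libraries.

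**Figure D1:**
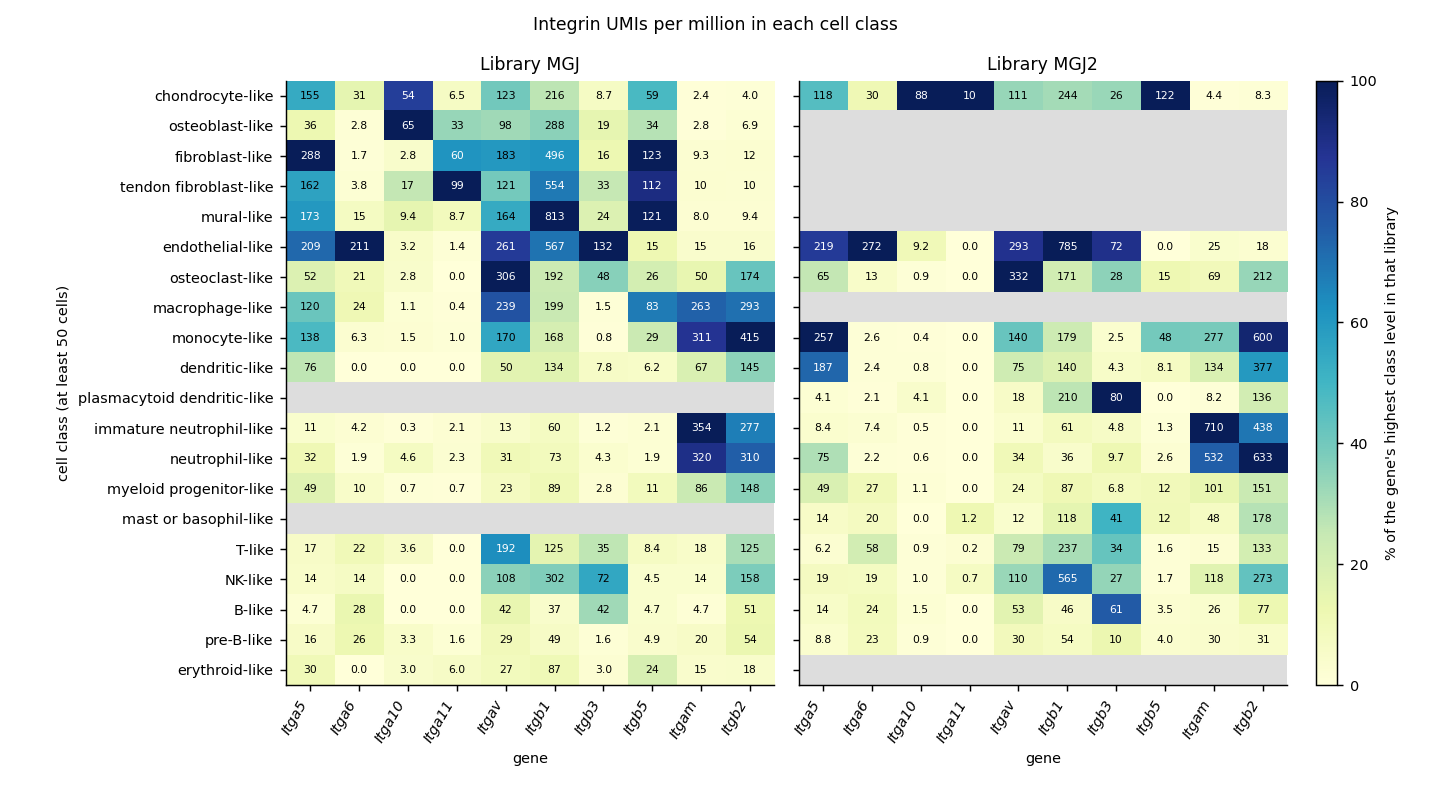
Rows are the cell classes with at least 50 cells (grey, fewer cells), columns are the 10 integrin genes, and each number is the level in CPM for library MGJ (left) and MGJ2 (right); the colour gives the level as a percentage of the gene's highest class in that library. Itga10 was dark in chondrocyte-like and osteoblast-like rows, Itga6 in endothelial-like rows, and Itgam and Itgb2 in neutrophil-like and monocyte-like rows.

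The collagen receptor Itga10 (ENSMUSG00000090210, chr3:96645584-96664519, plus strand, GRCm38) was high in chondrocyte-like cells of both libraries. In library MGJ2 it reached 88.2 CPM (78.5–98.8, 298 UMIs) in the 110 chondrocyte-like cells, which held 87.4% of its UMIs in the classes of at least 50 cells. The next of these classes, endothelial-like, had 9.23 (2.52–23.6, 4 UMIs). Among smaller classes of MGJ2, the 11 osteoblast-like cells had 234 (166–319, 39 UMIs), above the chondrocyte-like level. There, 19 marrow stroma-like cells had 69.1 (38.7–114, 15 UMIs) and 9 mural-like cells 55.3 (22.2–114, 7 UMIs), and the other small classes at most 1 UMI. In library MGJ the level was 54.4 (52.4–56.5) in the 2320 chondrocyte-like cells and 64.7 (47.6–86.1) in the 63 osteoblast-like cells. The ratio of osteoblast-like to chondrocyte-like was 1.19 (0.872–1.59), so these neighbours did not differ beyond counting error. Tendon fibroblast-like cells had 16.6 (14.4–19.0), mural-like cells 9.45 (5.03–16.2) and fibroblast-like cells 2.83 (1.91–4.04). The median over the 18 classes was 2.92.

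The osteoblast-like value of Itga10 in MGJ was set beside the 12 chondrocyte markers in the same cells, since RNA of other cells can be captured with a cell. The markers reached a median of 4.30% (0.395% to 41.1%) of their chondrocyte-like level in osteoblast-like cells, where Itga10 reached 119%. In tendon fibroblast-like cells Itga10 stood at 30.5% of its chondrocyte-like level, with the markers at a median of 2.92% (0.980% to 33.9%). In fibroblast-like cells the 2 values were close, 5.2% for Itga10 and a median of 4.0% for the markers. The osteoblast-like class of MGJ rests on 47 UMIs of Itga10. The class was obtained by dividing a weakly marked stromal cluster after its leading genes had been seen.

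Itga11 (ENSMUSG00000032243, chr9:62677826-62783982, plus strand), the other collagen receptor, had a different order in library MGJ, with tendon fibroblast-like and fibroblast-like cells first. It reached 98.5 CPM (93.1–104) in tendon fibroblast-like, 60.2 (55.6–65.1) in fibroblast-like, 33.1 (21.2–49.2) in osteoblast-like and 6.48 (5.80–7.23) in chondrocyte-like cells. Tendon fibroblast-like exceeded fibroblast-like cells 1.64-fold (1.49–1.80). Library MGJ2 had no fibroblast-like cells and 5 tendon fibroblast-like cells. There the gene was seen in chondrocyte-like cells at 10.1 (6.97–14.1, 34 UMIs), with at most 2 UMIs in any other class of 50 cells. Of the smaller classes of MGJ2, tendon fibroblast-like cells had 142 (77.8–239, 14 UMIs) and 11 osteoblast-like cells 53.9 (24.7–102, 9 UMIs), with at most 2 UMIs in the others. Taking the collagen receptor pair together, Itga10 gave 89.4% (88.2–90.4) of the UMIs in chondrocyte-like cells of MGJ and 89.8% (86.0–92.8) in those of MGJ2. The share was 66.2% (54.0–77.0) in osteoblast-like, 14.4% (12.6–16.3) in tendon fibroblast-like and 4.49% (3.05–6.35) in fibroblast-like cells. These shares can be compared between classes, but they are not the proportions of the proteins.

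To equalise depth, each cell with at least 2000 UMIs was thinned to 2000, and cells with fewer were left out. Itga10 was then found in 11.1% (9.86–12.5) of 2294 chondrocyte-like cells of MGJ and 18.2% (11.5–26.7) of 110 of MGJ2. Without thinning, over all cells of the class, the shares were 60.7% and 75.5%, at median depths of 21554 and 29210.5 UMIs. In NK-like cells, which should lack a collagen receptor of cartilage, 0 of 57 thinned cells in MGJ and 0 of 648 in MGJ2 had a UMI (upper bounds 6.27% and 0.568%). Without thinning, at median depths of 2927 and 3832 UMIs, the NK-like shares were 0% of 72 cells and 0.435% of 690 cells, the latter from 3 UMIs. Itga11 was found in 16.5% (13.8–19.5) of tendon fibroblast-like and 10.9% (8.47–13.7) of fibroblast-like cells against 1.35% (0.92–1.91) of chondrocyte-like cells in MGJ, and in 0 of 194 T-like cells (upper bound 1.88%). Unthinned, Itga11 was in 66.9%, 49.5% and 11.1% of the cells of the former 3 classes.

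**Figure D2:**
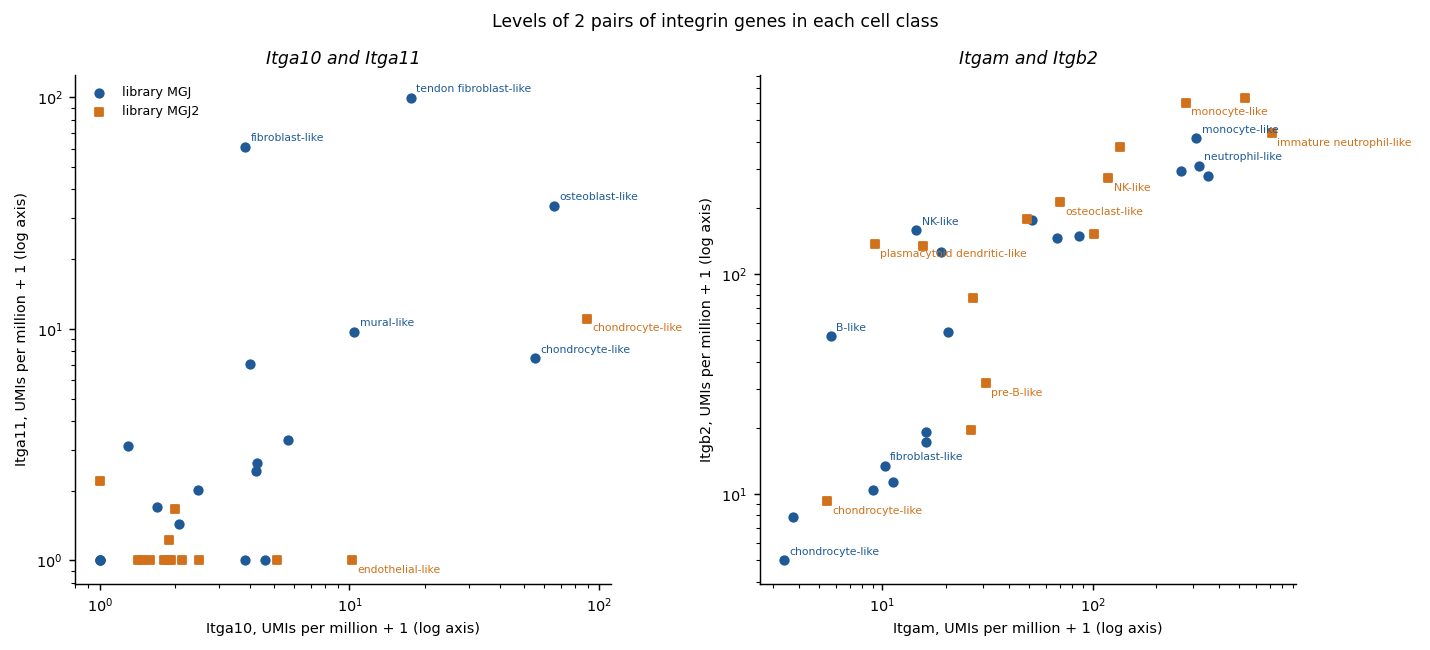
Each point is a cell class of library MGJ (circles) or MGJ2 (squares), on log axes of CPM plus 1, for Itga10 against Itga11 (left) and Itgam against Itgb2 (right). Chondrocyte-like cells of both libraries and osteoblast-like cells of MGJ lay far to the right in the first panel. They were below the tendon fibroblast-like and fibroblast-like cells of MGJ on its y axis. In the second panel, Itgam and Itgb2 were high in the same classes.

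Itga5 (ENSMUSG00000000555, chr15:103344286-103366763, minus strand), the fibronectin receptor subunit, was broad. In library MGJ it was highest in fibroblast-like cells at 288 CPM (278–298), followed by endothelial-like at 209 (192–226), mural-like at 173 (152–196), tendon fibroblast-like at 162 (155–170) and chondrocyte-like at 155 (152–159). The lowest class was B-like at 4.67, and the median was 50.9. In library MGJ2 the order was monocyte-like at 257 (249–265), endothelial-like at 219 (177–268), dendritic-like at 187 (173–202) and chondrocyte-like at 118 (107–130). The first 2 of these did not differ beyond counting error, with a ratio of 1.17 (0.956–1.45), and 62.0% of its UMIs in the classes were in monocyte-like cells.

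Itga6 (ENSMUSG00000027111, chr2:71745616-71858416, plus strand), the laminin receptor subunit, was highest in endothelial-like cells of both libraries. Endothelial-like cells had 211 CPM (194–229) in MGJ and 272 (225–326) in MGJ2. The next class of at least 50 cells was chondrocyte-like in MGJ (31.4, 29.9–33.0) and T-like in MGJ2 (58.4, 51.6–65.9). The endothelial-like level was 6.71-fold (6.09–7.39) and 4.66-fold (3.72–5.81) above it. The 11 marrow stroma-like cells of MGJ had 116 (57.7–207, 11 UMIs). Chondrocyte-like cells of MGJ2 had 30.5 (24.9–37.0), and fibroblast-like cells of MGJ had 1.70 (1.01–2.69). At 2000 UMIs per cell, Itga6 was found in 30.7% (24.6–37.3) and 52.9% (35.1–70.2) of endothelial-like cells, in 6.19% and 7.27% of chondrocyte-like cells, and in 0.170% of fibroblast-like cells of MGJ, where the unthinned shares were 60.9% and 70.0%, 36.9% and 43.6%, and 2.68%.

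Itgb1 (ENSMUSG00000025809, chr8:128685654-128733200, plus strand), the common beta subunit, was highest in mural-like and endothelial-like cells. Mural-like cells of MGJ had 813 CPM (766–862), endothelial-like cells 567 (539–595), tendon fibroblast-like cells 554 (541–567), fibroblast-like cells 496 (483–510) and chondrocyte-like cells 216 (212–221). In MGJ2, endothelial-like cells had 785 (704–873), NK-like cells 565 (538–592), chondrocyte-like cells 244 (228–261) and neutrophil-like cells 36.4, the lowest class. Among classes of at least 50 cells, the top class exceeded the next 1.44-fold (1.33–1.55) in MGJ and 1.39-fold (1.23–1.56) in MGJ2. The 9 mural-like cells of MGJ2 had 1067 (895–1263, 135 UMIs), above its endothelial-like level. Within chondrocyte-like cells, the share of thinned cells with Itgb1 was set beside detection of an alpha partner. It was 37.3% (31.3–43.5) in cells with Itga10 and 35.9% (33.8–38.0) without it in MGJ, and 60% (36.1–80.9, 20 cells) and 33.3% (23.7–44.1) in MGJ2. For Itga11 it was 51.6% (33.1–69.8, 31 cells) and 35.8% (33.8–37.8) in MGJ. The intervals overlapped in each case, and those of the small groups were too wide to tell like shares from unlike ones.

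Itgav (ENSMUSG00000027087, chr2:83724397-83806916, plus strand) is the alpha subunit of the RGD receptors. Among classes of at least 50 cells, it was highest in osteoclast-like and endothelial-like cells of both libraries. Osteoclast-like cells had 306 CPM (284–328) in MGJ and 332 (308–357) in MGJ2, and endothelial-like cells had 261 (243–281) and 293 (244–349). The ratio of these 2 classes was 1.17 (1.06–1.30) in MGJ and 1.13 (0.935–1.38) in MGJ2. The lowest class was immature neutrophil-like, at 13.3 and 11.3, and the medians over classes were 114 and 64.2. Macrophage-like cells of MGJ had 239 (230–250) and chondrocyte-like cells 123 (120–126) in MGJ and 111 (99.8–123) in MGJ2. Of the small classes of MGJ2, 25 macrophage-like cells had 474 (400–557) and 19 marrow stroma-like cells 387 (309–479), above the osteoclast-like level. The other small classes of MGJ2 were below it.

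Of the beta partners of Itgav, Itgb3 and Itgb5 were high in different classes, whereas Itgb1 had UMIs in every class. Itgb3 (ENSMUSG00000020689, chr11:104608000-104670476, plus strand) was highest in endothelial-like cells of MGJ at 132 CPM (118–146), 1.82-fold (1.11–3.22) above NK-like cells at 72.1 (41.2–117, 16 UMIs), with osteoclast-like cells at 47.5 (39.4–56.9). In MGJ2, plasmacytoid dendritic-like cells had 80.2 (57.0–110, 39 UMIs) and endothelial-like cells 71.6 (48.6–102, 31 UMIs), a ratio of 1.12 (0.681–1.86), followed by B-like cells at 60.8 (50.5–72.6) and osteoclast-like cells at 28.1 (21.5–36.1). Its lowest class of at least 50 cells was monocyte-like in both, at 0.796 and 2.52. Itgb5 (ENSMUSG00000022817, chr16:33829665-33949338, plus strand) was highest in stromal cells. In MGJ, fibroblast-like cells had 123 (116–130), mural-like cells 121 (104–141) and tendon fibroblast-like cells 112 (106–118), with a ratio of the first 2 of 1.01 (0.860–1.20), and macrophage-like cells, at 83.1 (77.3–89.2), came before chondrocyte-like cells at 59.1. In MGJ2, among classes of at least 50 cells, chondrocyte-like cells had 122 (110–134), monocyte-like cells 48.3 (44.8–52.1) and endothelial-like cells none. Of its smaller classes, 5 tendon fibroblast-like cells had 193 (116–301, 19 UMIs) and 9 mural-like cells 119 (66.4–196, 15 UMIs). There, 25 macrophage-like cells had 93.5 (62.6–134) and 11 osteoblast-like cells 53.9 (24.7–102, 9 UMIs).

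Of the UMIs of Itgb3 and Itgb5 together, Itgb3 gave 1.79% (0.982–2.99) in macrophage-like cells of MGJ, and 2.67% and 4.97% in monocyte-like cells of MGJ and MGJ2. The share was 12.8% (11.7–14.0) and 17.8% (14.5–21.4) in chondrocyte-like cells, 11.6% in fibroblast-like and 22.8% in tendon fibroblast-like cells. Osteoclast-like cells stood at 64.8% (57.4–71.8) and 65.6% (55.0–75.1). At the other end were endothelial-like cells with 89.9% (86.6–92.7) in MGJ and 31 of 31 UMIs in MGJ2, and B-like, NK-like and T-like cells of MGJ2 with 94.1% to 95.6%. The order of macrophage-like, chondrocyte-like, osteoclast-like and endothelial-like cells thus ran from Itgb5 to Itgb3, and the plot of this share by class shows it.

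**Figure D3:**
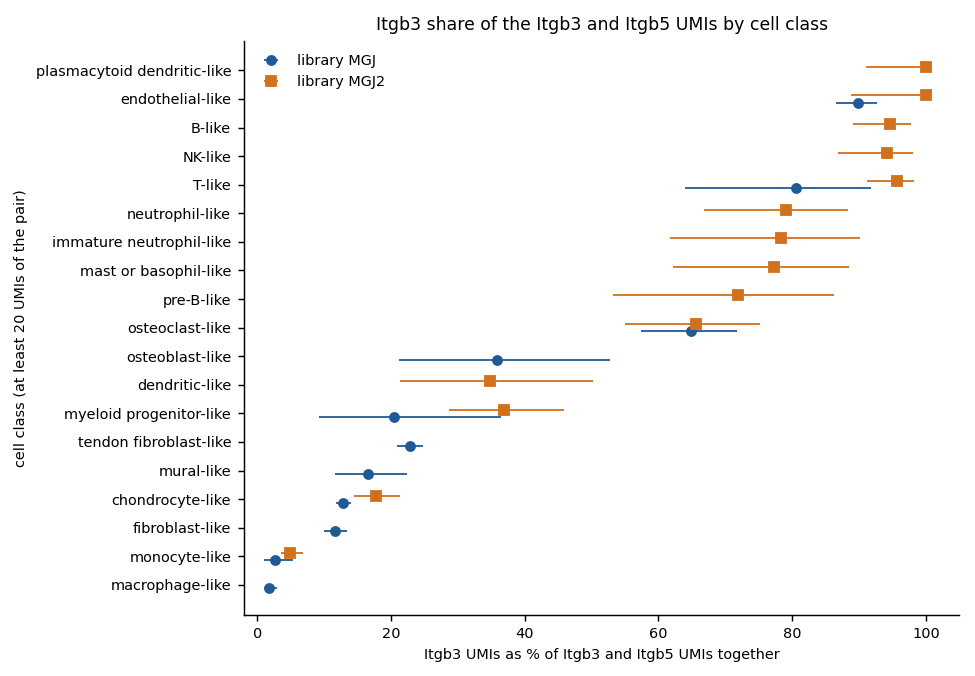
For each cell class with at least 20 UMIs of the pair (rows), points give the Itgb3 UMIs as a percentage of Itgb3 and Itgb5 UMIs together (x axis, percent) with exact 95% intervals, for library MGJ (circles) and MGJ2 (squares). Macrophage-like and monocyte-like cells lay under 5%, osteoclast-like cells at 64.8% and 65.6%, and endothelial-like cells at 89.9% or above.

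Itgb3 is also a gene of platelets and their precursors, so the 6 megakaryocyte markers were summed in the same cells. They came to 12.3 and 4.62 CPM in endothelial-like cells of MGJ and MGJ2, with Ppbp, Gp1ba and Treml1 at 0 in both, and to 0 in plasmacytoid dendritic-like cells of MGJ2. In B-like cells the sum was 0.499 in MGJ2 and 224 in MGJ, there from 1 of the 6 markers, Pf4. Relative to osteoclast-like cells, Itgb3 of endothelial-like cells reached 277% and 254%, where the 8 osteoclast markers had medians of 0.0977% and 0%. At 2000 UMIs per cell, Itgb3 was found in 16.3% (11.6–21.9) and 17.6% (6.76–34.5) of endothelial-like cells, 7.84% (3.45–14.9) and 6.56% (1.82–15.9) of osteoclast-like cells, and 0 of 1224 and 0.694% (0.347–1.24) of monocyte-like cells. The unthinned shares were 39.8% and 30%, 22% and 35.5%, and 0.532% and 2.11%.

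Among classes of at least 50 cells, the leukocyte pair was highest in myeloid cells and lowest in chondrocyte-like cells. Itgam (ENSMUSG00000030786, chr7:128062640-128118491, plus strand), the alpha subunit CD11b, was highest in immature neutrophil-like cells at 354 CPM (334–375) in MGJ and 710 (689–732) in MGJ2. It was next in neutrophil-like cells, at 320 (298–342) and 532 (512–553), and in monocyte-like cells, at 311 (299–322) and 277 (268–286). Macrophage-like cells of MGJ had 263 (253–274), and NK-like cells 14.4 in MGJ against 118 (106–131) in MGJ2. Itgb2 (ENSMUSG00000000290, chr10:77530252-77565708, plus strand), the beta subunit CD18 that Itgam shares with other leukocyte alpha subunits, had a wider spread. In MGJ it was highest in monocyte-like cells at 415 (401–428), 1.34-fold (1.24–1.45) above neutrophil-like cells at 310 (289–332). In MGJ2 neutrophil-like cells had 633 (612–656) and monocyte-like cells 600 (588–613), a ratio of 1.06 (1.01–1.10), and dendritic-like cells had 377 (357–397).

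Of the UMIs of Itgam and Itgb2 together, Itgam gave 56.1% (54.0–58.3) and 61.9% (60.7–63.0) in immature neutrophil-like cells and 50.8% (48.3–53.2) and 45.7% (44.4–46.9) in neutrophil-like cells. It gave 42.8% and 31.6% in monocyte-like cells, 22.4% (19.0–26.1) and 24.6% (21.2–28.2) in osteoclast-like cells, and 12.5% and 9.95% in T-like cells, which use Itgb2 with another alpha subunit. NK-like cells differed between the libraries, with 7.89% (1.66–21.4, 38 UMIs) in MGJ, where the class held 72 cells, and 30.2% (27.6–32.9) in the 690 cells of MGJ2. Among thinned neutrophil-like cells, Itgb2 was found in 54.4% (48.0–60.7) of cells with Itgam and 39.0% (33.3–44.8) of cells without it in MGJ, and in 71.9% (68.6–75.0) and 65.4% (61.3–69.4) in MGJ2. In NK-like cells of MGJ2 the shares were 58.5% (49.0–67.5) and 40.9% (36.7–45.3), and in immature neutrophil-like cells of MGJ2 61.5% and 61.3%.

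Chondrocyte-like cells had 2.41 (2.0–2.88) and 4.44 (2.49–7.32) CPM of Itgam and 3.99 (3.46–4.58) and 8.29 (5.51–12) of Itgb2, the lowest of all classes in both libraries. As a share of the neutrophil-like level this was 0.755% and 0.834% for Itgam and 1.29% and 1.31% for Itgb2, beside medians of 0.193% and 0.178% for the neutrophil markers. Osteoblast-like cells of MGJ were near this, at 0.862% for Itgam and 2.22% for Itgb2. Of the smaller classes, 11 marrow stroma-like cells of MGJ and 11 osteoblast-like cells of MGJ2 had 0 UMIs of both genes. At 2000 UMIs per cell, Itgam was found in 0.567% (0.302–0.967) and 4.55% (1.49–10.3) of chondrocyte-like cells and in 46.3% (42.0–50.6) and 58.3% (55.6–60.9) of neutrophil-like cells. Unthinned, the shares were 4.61% and 12.7% of chondrocyte-like cells, at median depths of 21554 and 29210.5 UMIs, and 49.3% and 61.5% of neutrophil-like cells, at 2332.5 and 2343 UMIs. The unthinned shares are of all cells of a class, and the thinned ones only of cells with at least 2000 UMIs. The part of free RNA and doublets in the chondrocyte-like values was not tested.

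Neighbours in these orders often could not be told apart. For the 17 pairs of neighbouring classes of each gene in MGJ, between 9 pairs (Itgb1) and 15 pairs (Itga6, Itga10 and Itgb3) did not differ beyond the counting interval of their ratio. For the 13 pairs in MGJ2 the numbers ran from 6 (Itgam and Itgb2) to 12 (Itga10 and Itga11).

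To see which integrins set chondrocytes apart, chondrocyte-like cells were compared with all other kept cells of the same library. Genes with at least 20 UMIs in both sides together were used, and a gene counted as apart at a ratio of 2 or more. Itga10 was the single gene of the 10 that was at least 2-fold higher in MGJ, where 13.1% of all 16495 genes were, and 3 genes, Itga11, Itgam and Itgb2, were at least 2-fold lower, where 26.5% of all genes were. In MGJ2, Itga10, Itga11 and Itgb5 were higher (21.6% of 14715 genes) and Itgam and Itgb2 lower (33.5%). The median log2 ratio of the 10 genes was -0.29 in MGJ and 0.71 in MGJ2, beside -0.20 and -0.21 for all genes.

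Itga10 was at 54.4 against 14.3 CPM in MGJ, 3.80-fold higher (3.54–4.07), and at 88.2 against 5.10 in MGJ2, 17.3-fold higher (14.6–20.4). All other cells include the unnamed ones, among them cells of chondrocyte sub-clusters that were set aside because markers of other cells led them. Those with at least 20 cells in a library held 713 cells of MGJ and 31 of MGJ2. With unnamed cells left out the ratios were 9.21 and 44.4, and over all alternatives they ran from 3.80 to 9.61 and from 17.3 to 53.0. Itga11 went opposite ways in the libraries, with a ratio of 0.242 (0.215–0.272) in MGJ, which had fibroblast-like cells, and 10.0 (6.33–15.6) in MGJ2, which had none (4.17 to 31.4 over the alternatives). Itgb5 stood at 0.990 (0.946–1.04) and 6.35 (5.65–7.12), and Itgb3 at 0.531 (0.475–0.592) and 1.91 (1.52–2.38). Under single alternatives the Itgb5 ratio of MGJ reached 1.88 with each cell weighted equally, and the Itgb3 ratio of MGJ2 dropped below 1, to 0.542, with each cell named by its highest marker score. Itgb1 was at 0.727 (0.711–0.744; 1.11 with each cell weighted equally) in MGJ and 1.5 (1.40–1.61) in MGJ2, and Itgav at 0.919 (0.891–0.949; 1.23 with each cell weighted equally) and 1.25 (1.12–1.39). Itga6 was 1.79-fold (1.66–1.92) and 1.78-fold (1.43–2.18) and Itga5 1.19-fold (1.16–1.23) and 1.14-fold (1.02–1.26) higher, although the MGJ2 ratio of Itga5 crossed 1 in 3 of 12 alternatives (0.941 at the lowest). Itgam was at 0.0201 and 0.0186 and Itgb2 at 0.0271 and 0.0232 of the level in all other cells.

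The other lists give the surroundings of these receptors. Of 17 other integrin subunits, 2 were higher and 8 lower in MGJ, and 4 higher and 8 lower of 16 tested in MGJ2; lymphocyte and myeloid subunits Itgb7 (0.0197 and 0.0204), Itgal (0.0332 and 0.0186), Itgax (0.0330 and 0.0379) and Itga4 (0.0574 and 0.0290) were lower in both. Of the integrin ligands, 5 of 24 were higher and 11 lower in MGJ and 14 of 21 higher and 5 lower in MGJ2. Among them, and named after their values were seen, the cartilage collagen Col2a1 (7.36 and 40.9), bone sialoprotein Ibsp (3.95 and 39.5) and fibronectin Fn1 (3.49 and 18.3) were higher in both, although Col2a1 also belonged to the genes used to cluster and to name chondrocytes. Of the activators and adaptors, 3 of 25 were higher and 9 lower in MGJ and 7 of 24 higher and 10 lower in MGJ2, and the leukocyte kindlin Fermt3, which activates beta subunits, was at 0.0347 and 0.0477.

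**Figure D4:**
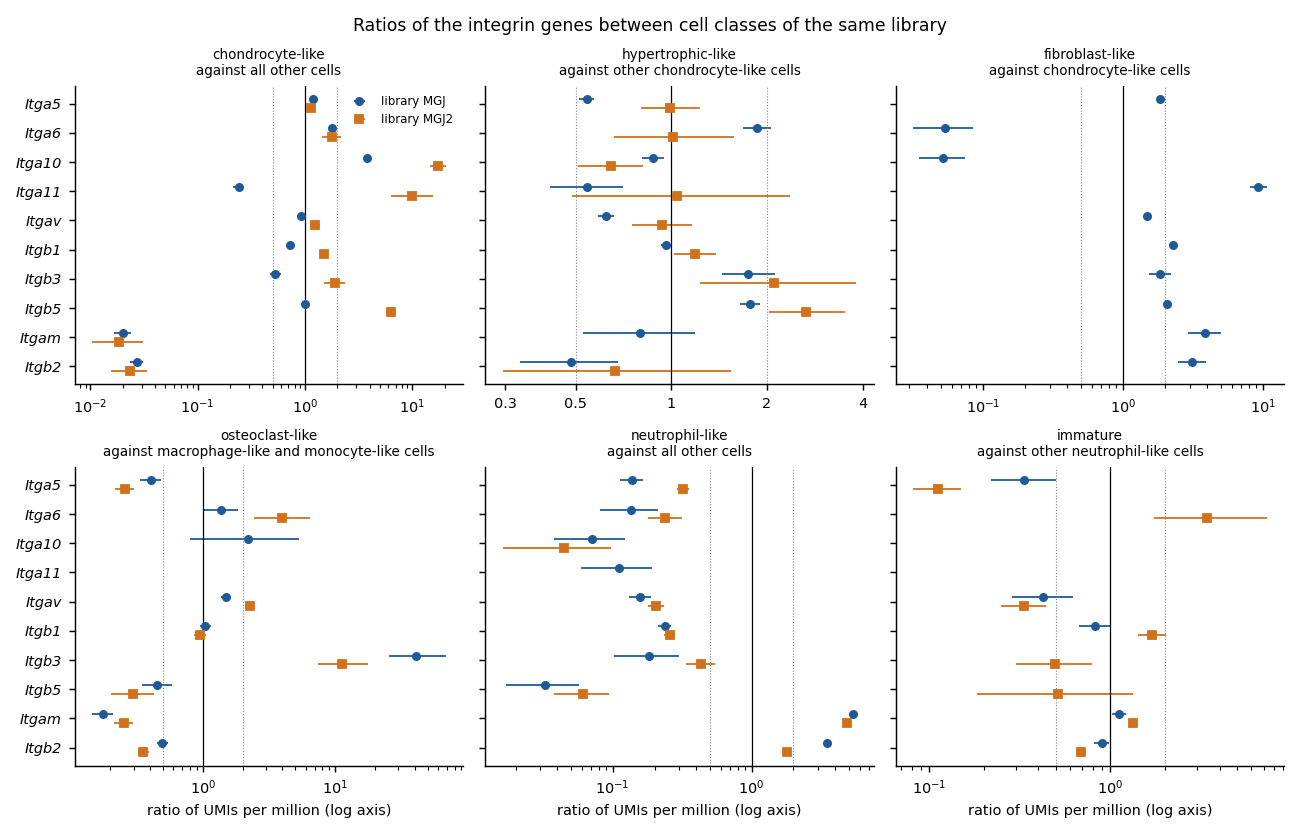
Each panel is a comparison of cell classes within a library, rows are the 10 integrin genes, and points give the ratio of CPM (log axis) with exact 95% intervals for MGJ (circles) and MGJ2 (squares), for genes with at least 20 UMIs; dotted lines mark 2-fold. Itga10 lay to the right in the chondrocyte-like panel, Itgb3 in the osteoclast-like panel, and Itgam and Itgb2 in the neutrophil-like panel.

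Chondrocytes enlarge and express Col10a1 before cartilage gives way to bone, so hypertrophic-like cells were set against the remaining chondrocyte-like cells (800 against 1520 cells in MGJ, 77 against 33 in MGJ2). None of the 10 genes was at least 2-fold higher in MGJ, where 7.73% of 13890 genes were, and Itgb2 alone was 2-fold lower, where 10.2% were, at 2.36 against 4.89 CPM. In MGJ2, 2 of 9 genes tested were higher, Itgb5 and Itgb3 (10.5% of 8648 genes), and none was lower (8.45%). The median log2 ratio of the tested genes was -0.26 and 0.01, beside -0.06 and 0.05 for all genes. The count in MGJ is fragile, since 1 to 5 of the genes were apart under the alternatives, and the Itgb2 call did not hold in 7 of 11 of them.

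Itgb5 and Itgb3, which pair with Itgav, were higher in hypertrophic-like cells of both libraries. Itgb5 was at 82.0 (77.9–86.3) against 46.4 (44.1–48.9) CPM in MGJ, a ratio of 1.77 (1.64–1.90), and at 154 (138–171) against 57.9 (44.7–73.8) in MGJ2, a ratio of 2.66 (2.03–3.52). Itgb3 was at 12 against 6.87 in MGJ, a ratio of 1.75 (1.44–2.12; up to 3.31 with doublet calls kept), and at 31.9 against 15.1 in MGJ2, a ratio of 2.11 (1.23–3.82; 1.85 with each cell named by its highest marker score and 12.3 with MGJ2 clustered on its own). The third beta partner of Itgav, Itgb1, was at 0.963 (0.925–1.0) in MGJ and 1.18 (1.02–1.38) in MGJ2, on opposite sides of 1. Itgav itself was at 0.621 (0.586–0.658) and 0.934 (0.752–1.16) of the level in the other cells. Itga5 was at 100 against 185 CPM in MGJ, a ratio of 0.540 (0.512–0.570), but at 118 in both sides in MGJ2, a ratio of 0.992 (0.802–1.23). Itga6 had a ratio of 1.86 (1.68–2.05) in MGJ and 1.01 (0.661–1.57) in MGJ2, and Itga10 of 0.877 (0.809–0.951) and 0.643 (0.509–0.815).

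Differences within the hypertrophic-like cells were as large. In MGJ, the sub-cluster with the most Col10a1 (555 cells, led by Pank1, Pde11a, Ffar4 and Col10a1) had 102 CPM of Itgb5 (95.9–108), 17.4 of Itgb3 (15.1–20.0) and 55.5 of Itga6 (51.3–60). The second hypertrophic-like sub-cluster (245 cells, led by Elf3) had 47.1 (41.9–52.7), 2.34 (1.31–3.86) and 25.4 (21.7–29.6). The first thus differed from the second in all 3 genes, while the second was in the range of the remaining sub-clusters for Itgb5 (44.8 to 63.1) and Itga6 (7.90 to 32.9) and below them for Itgb3 (4.39 to 11.8). Itga5 was lowest in the first and in a set-aside sub-cluster led by Col8a1, at 81.4 (76.2–86.8) and 77.5 (71.1–84.3), and highest at 273 (243–305) in 53 cells led by the acute-phase genes Saa1 and Saa2. In MGJ2, the Col10a1-high sub-cluster (76 cells) had 155 (139–172) of Itgb5 and the sub-cluster led by Penk (20 cells) 47.5 (32.3–67.5).

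The sub-clusters that were set aside are described because they limit the chondrocyte-like values. A sub-cluster of 239 cells of MGJ led by Retnlg and S100a8 had 29.9 CPM of both Itgam and Itgb2, and 63 cells led by Ms4a6c and C1qa had 66.1 and 67.9. Itga10 in these was 48.8 and 50.5, within the range of the other chondrocyte sub-clusters. With unnamed clusters counted in their best list, all set-aside sub-clusters went back to the chondrocyte-like cells. In MGJ, the Itga10 ratio to all other cells then went from 3.80 to 9.61. The hypertrophic-like ratio went from 0.482 to 0.240 for Itgb2 and from 0.798 to 0.258 for Itgam. The source of the Itgam and Itgb2 UMIs in these sub-clusters was not tested.

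**Figure D5:**
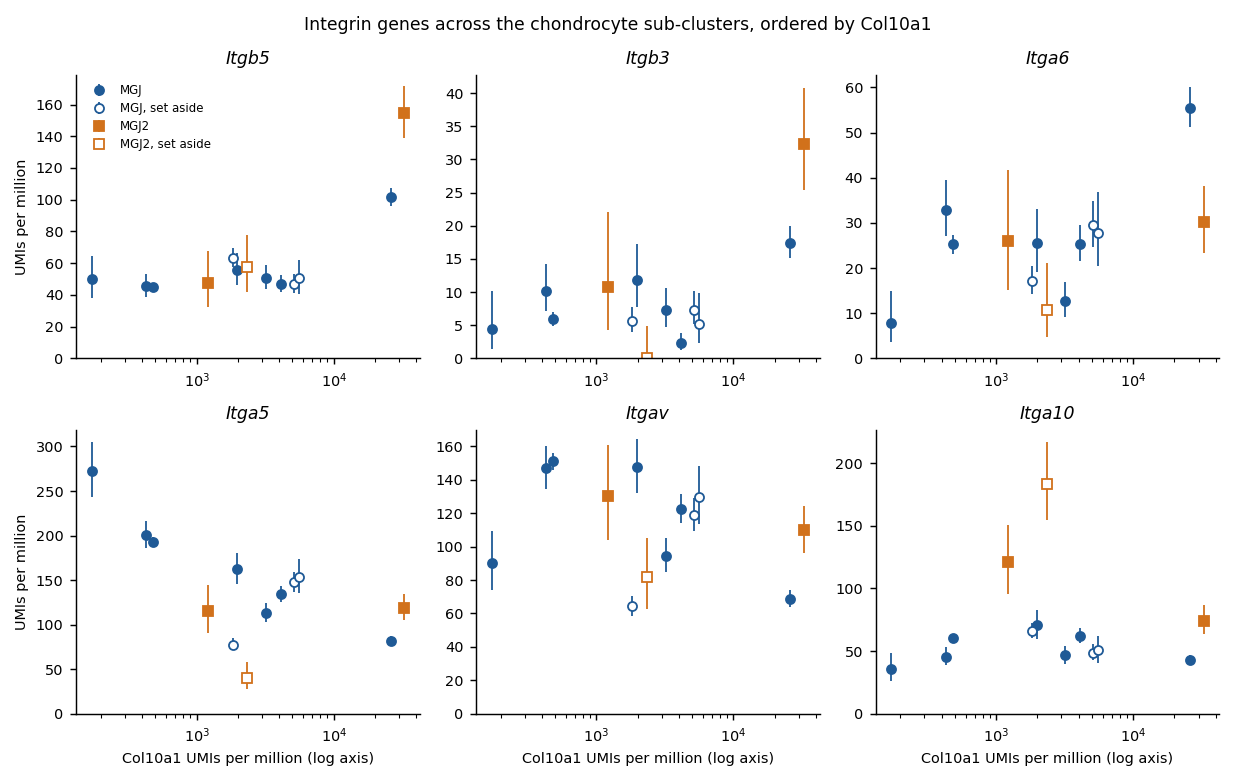
Each point is a sub-cluster of the chondrocyte-like clusters with at least 20 cells in library MGJ (circles) or MGJ2 (squares), open where it was set aside, with Col10a1 on the x axis (CPM, log axis) and the integrin gene on the y axis (CPM) with exact 95% intervals. The sub-clusters with the most Col10a1 had the highest Itgb5 and Itgb3 in both libraries.

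Of the other lists, the collagen receptor subunit Itga1 was higher in hypertrophic-like cells of both libraries (3.06 and 4.02), with 3 higher and 2 lower of 13 other integrin subunits in MGJ and 1 higher of 3 tested in MGJ2. Osteopontin, Spp1, a ligand of Itgav, was higher (2.46 and 2.01), and tenascin-C, Tnc (0.189 and 0.199), and periostin, Postn (0.310 and 0.275), were lower. The ligand list had 3 higher and 3 lower of 22 genes in MGJ and 3 higher and 4 lower of 17 in MGJ2. The activators and adaptors had 1 higher and 3 lower of 24, and 2 higher and none lower of 19.

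Fibroblast-like cells were compared with chondrocyte-like cells in library MGJ (596 against 2320 cells), since MGJ2 had no fibroblast-like cells. Of the 10 genes, 5 were at least 2-fold higher in fibroblast-like cells, where 20.6% of 14508 genes were, and 2 were lower, where 17.4% were. The median log2 ratio was 0.97, beside 0.13 for all genes. Itga11 was 9.29-fold (8.12–10.7) and Itgb1 2.29-fold (2.22–2.37) higher, and Itgb5 2.08-fold (1.94–2.22), which fell below 2 in 3 of 11 alternatives. Itgam and Itgb2 were 3.83-fold (2.91–5.04) and 3.12-fold (2.49–3.91) higher, at 9.25 and 12.5 CPM, and both calls were lost in 2 alternatives (1.45 for Itgam and 1.41 for Itgb2 at the lowest). Itga10 was at 0.0520 (0.0350–0.0745) and Itga6 at 0.0541 (0.0320–0.0858) of the chondrocyte-like level. With each cell named by its highest marker score, the Itga10 ratio was 0.245. Itga5, Itgb3 and Itgav were between, at 1.86, 1.86 and 1.49. Of the lists, 5 of 14 other subunits, 13 of 24 ligands and 7 of 24 activators and adaptors were higher, and 3, 7 and 2 were lower.

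Osteoclasts arise from the monocyte lineage, so osteoclast-like cells were compared with macrophage-like and monocyte-like cells together (109 against 2240 cells in MGJ, 62 against 1633 in MGJ2, of which 25 were macrophage-like). In MGJ, 2 of 9 genes tested were at least 2-fold higher, where 24.3% of 11183 genes were, and 4 were lower, where 16.7% were. In MGJ2, 3 of 8 were higher (30.6% of 10561 genes) and 4 lower (21.9%). The median log2 ratio was 0.06 and -0.78, beside 0.24 and 0.25 for all genes.

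Itgb3 stood apart the most of the 10 genes. It was at 47.5 against 1.16 CPM in MGJ (118 and 21 UMIs), 40.8-fold higher (25.5–68.4), and at 28.1 against 2.47 in MGJ2 (61 and 36 UMIs), 11.4-fold higher (7.42–17.7). Over the alternatives the ratios ran from 14.7 to 47.0 and from 7.95 to 13.5. Itgav was 1.49-fold (1.38–1.61) and 2.26-fold (2.07–2.46) higher. Itga6 was 1.38-fold (1.01–1.86) and 3.98-fold (2.42–6.42) higher, the former at 0.724 with each cell named by its highest marker score. The 25 macrophage-like cells of MGJ2 alone had 474 CPM of Itgav (400–557) and 38.7 of Itga6 (20.0–67.6). Osteoclast-like cells there had less, 332 and 13.4, so these MGJ2 ratios are mainly a contrast with monocyte-like cells. The remaining higher gene of MGJ, Itga10, rested on 7 UMIs, with a ratio of 2.21 (0.802–5.33), and was not called in 2 alternatives.

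The leukocyte pair and Itga5 and Itgb5 were lower in osteoclast-like cells of both libraries. Itgam was at 50.4 against 286 and at 69.2 against 274 CPM, ratios of 0.176 (0.146–0.210) and 0.252 (0.213–0.297). Itgb2 was at 0.495 (0.448–0.546) and 0.355 (0.323–0.390), Itga5 at 0.406 (0.337–0.484) and 0.257 (0.216–0.304), and Itgb5 at 0.455 (0.348–0.586) and 0.299 (0.203–0.427). Named by the highest marker score of each cell, Itgb2 and Itga5 were at 0.795 and 0.644 in MGJ, and the Itgb5 ratio of MGJ was 0.608 with cells weighted equally and 0.502 with at most 10% mitochondrial UMIs. Itgb1 did not differ beyond counting error, with 1.05 (0.948–1.15) and 0.956 (0.855–1.07). Of the other lists, Itgal (0.0565 and 0.0248), thrombospondin Thbs1 (0.0709 and 0.0201) and Vcam1 (0.127 and 0.0323) were lower in both libraries, and the kinase Src, named after its values were seen, which acts downstream of Itgav and Itgb3 in osteoclasts, was higher (2.60 and 24.3). Other integrin subunits had 0 higher and 5 lower of 7 in MGJ and 1 higher and 5 lower of 8 in MGJ2; ligands 0 and 9 of 19, and 2 and 7 of 13; activators and adaptors 2 and 5 of 22, and 3 and 4 of 18.

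Neutrophils were the largest named class of MGJ2, and neutrophil-like cells, immature ones included, were compared with all other cells (1257 against 12063 cells in MGJ, 2402 against 5182 in MGJ2). The other cells of MGJ include 2 clusters of 2524 and 1227 cells that were left unnamed for low UMIs and whose best marker list was the neutrophil one. Itgam and Itgb2 were at least 2-fold higher in MGJ (9.07% of 16495 genes) and the 8 matrix-binding genes lower (61.9%). In MGJ2, Itgam was higher (8.09% of 14715 genes) and the same 8 were lower (58.4%), a direction that most genes shared. The median log2 ratio of the 10 genes was -2.77 and -1.96, beside -1.17 and -1.18 for all genes.

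Itgam was at 339 against 62.9 CPM in MGJ, 5.39-fold higher (5.13–5.66), and at 630 against 130 in MGJ2, 4.86-fold higher (4.69–5.03). Itgb2 was 3.49-fold (3.31–3.67) and 1.81-fold (1.75–1.86) higher. In MGJ, the cells weighted equally gave 2.49 for Itgam and 1.64 for Itgb2, so the Itgb2 call was lost. With unnamed clusters counted in their best list (5008 neutrophil-like cells of MGJ) the ratios were 5.07 and 4.12, and with unnamed cells left out 5.88 and 3.78. The matrix-binding genes were at 0.0328 (Itgb5) to 0.237 (Itgb1) of the level in all other cells in MGJ, and at 0.0443 (Itga10) to 0.429 (Itgb3) in MGJ2 among those with UMIs on both sides. Itga11 had 0 UMIs in neutrophil-like cells of MGJ2, at least 7.04-fold lower against a floor of 3 UMIs in those cells. The calls of Itga5 (0.612 with cells weighted equally) and Itgb3 (0.607 at Leiden resolution 0.5) did not hold in 1 and 2 alternatives of MGJ2.

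Other integrin subunits were lower in 14 of 17 in MGJ and 11 of 16 in MGJ2. Itgb2l, a neighbour of Itgb2 in sequence known from neutrophils of the marrow, was higher in both (229 and 46.8); reads that it could share with Itgb2 were not resolved here. Ligands were lower in 21 of 24 and 17 of 21, with bone sialoprotein Ibsp (0.0216 and 0.0122) and the bone collagen Col1a2 (0.0236 and 0.0139) among them. The activators and adaptors had 6 higher and 9 lower of 25 and 5 higher and 8 lower of 24, with the kindlin Fermt2 lower (0.0270 and 0.0212) and the paxillin gene Pxn, named after its values were seen, higher (2.58 and 3.11).

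Immature neutrophil-like cells were compared with the other neutrophil-like cells (383 against 874 cells in MGJ, 501 against 1901 in MGJ2). Among 5 genes tested in MGJ, none was at least 2-fold higher (30% of 7351 genes), and Itga5 and Itgav were lower (16.4%). Among 8 in MGJ2, Itga6 was higher (45.5% of 9103 genes) and Itga5, Itgav and Itgb3 were lower (18.0%). The median log2 ratio was -0.29 and -0.75, beside 0.34 and 0.78 for all genes.

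Itga5 was at 10.6 against 31.8 CPM in MGJ and at 8.38 against 75.1 in MGJ2, ratios of 0.333 (0.217–0.50) and 0.112 (0.0816–0.15), so it was lower in immature cells of both libraries. Itgav was at 13.3 against 31.4 and at 11.3 against 34.2, ratios of 0.424 (0.287–0.619) and 0.332 (0.247–0.441), although the MGJ call did not hold in 3 of 11 alternatives. The leukocyte pair moved apart. Itgam was 1.11-fold (1.01–1.21) and 1.33-fold (1.27–1.40) higher in immature cells, and Itgb2 was at 0.894 (0.812–0.984) and 0.691 (0.656–0.728). The MGJ ratio of Itgb2 crossed 1 in 3 of 11 alternatives, and was 1.43 at Leiden resolution 0.5. In MGJ2, Itga6 was 3.40-fold higher (1.73–7.29; 45 and 11 UMIs), but 1.67-fold with at most 10% mitochondrial UMIs and 1.96-fold at Leiden resolution 0.5, Itgb3 was at 0.492 (0.30–0.794), a call that held in 2 of 11 alternatives, and Itgb1 was 1.69-fold higher (1.41–2.03), with 0.859 at Leiden resolution 0.5. Of the lists, Icam1 (0.0555 and 0.0378), a counter-receptor of Itgb2 integrins, and Itgax (0.122 and 0.0737) were lower in both, and Itgb2l was higher (4.09 and 8.97). Ligands had 0 higher and 4 lower of 12 in MGJ and 2 higher and 8 lower of 11 in MGJ2, other subunits 1 and 1 of 4, and 2 and 3 of 6, and activators and adaptors 5 and 3 of 16, and 7 and 5 of 17.

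The genes most alike each integrin were ranked by Pearson's r of log levels over the 32 class values of both libraries (18 and 14 classes, which share libraries and depths), among 11498 genes, and are a description only. Itga10 was most alike Irx5 (0.958), Kank1 (0.950) and Tnfrsf11b (0.948), and Itga11 most alike Fbn2 (0.953), Thbs4 (0.949) and Fzd2 (0.941). Itgam was nearest to Myo1f (0.918), Gm34084 (0.910) and Gdpd3 (0.896), and Itgb2 to Ncf4 (0.951), Lcp1 (0.944) and Hcls1 (0.914). The remaining genes had Phldb1 (0.866), Mcfd2 (0.849) and Il13ra1 (0.848) for Itga5, Dock9 (0.868), Icam2 (0.842) and Arhgef7 (0.839) for Itga6, Tmem65 (0.92), Twf1 (0.862) and Rai14 (0.845) for Itgav, and Luzp1 (0.886) and Bmpr2 (0.873) for Itgb1. Itgb3 had the lowest values, with Tgfbr2 (0.80), Brwd1 (0.744) and Socs5 (0.739), and Itgb5 had Sphk1 (0.870) and Rnf150 (0.858). Among pairs of the 10 genes, r was 0.85 for Itgam and Itgb2, 0.69 for Itgav and Itgb1, 0.67 for Itga11 and Itgb5, and -0.67 for Itga10 and Itgb2. For Itga10 and Itga11 it was 0.52.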

How the data were processed

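Calluses were digested to single cells and captured with droplet 3′ chemistry per the labels. The authors deposited filtered matrices of raw UMI counts per gene and barcode, not normalized. The file headers name Cell Ranger 4.0.0, and the submitters' notes name GRCm38, Cell Ranger and Seurat. Barcodes with fewer than 200 genes or over 20% mitochondrial UMIs and Scrublet calls were removed. Counts were scaled to 10000 UMIs per cell and log-transformed. Both libraries were clustered together without integration (scanpy 1.11.5, leidenalg 0.10.2; 2000 variable genes, 30 principal components, 15 neighbours, resolution 1, and 0.5 for sub-clusters), with the 10 integrin genes and the listed genes other than Col2a1 kept out of the variable genes. Clusters were named from 26 marker lists by mean log2(CPM + 10), with a score of at least 1 and at least 3 markers in at least 10% of cells, and left unnamed where markers of other classes led or UMIs were low. Weak stromal clusters were divided again at resolution 0.5, a step chosen after their leading genes were seen.

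Levels are summed UMIs in CPM (per 1000000 UMIs) with exact Poisson 95% intervals, ratios have exact conditional binomial intervals, and shares of cells have exact Clopper-Pearson intervals after a single random thinning to 2000 UMIs. Cells with fewer than 2000 UMIs were left out of the thinned shares and kept in the unthinned ones. The computation was tested on simulated data. All intervals cover counting error only, and total counts per library and class set their width. The members and lists were chosen with earlier results of these data known. The genes named were the 10 members, up to 6 genes per comparison from the 3 lists that were at least 2-fold apart the same way in both libraries, and the 3 genes most alike each member, of which some are not reported here. In place of a test, each count is set beside the same count over all genes. The alternatives are given with the closing limits.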

Additional observations from a re-analysis of the deposited data

Results flagged for a closer look

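The barcodes left out by the filters also held integrin UMIs, a signal in data outside the comparisons. In library MGJ, 975 such barcodes held 2828 UMIs of the 10 genes, a summed level of 765 CPM where the kept cells had 849, and 10 of 10 genes had over 3 UMIs. In library MGJ2, 425 barcodes held 3260 UMIs, 1078 CPM where the kept cells had 992, and 9 of 10 genes had over 3 UMIs.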

How the results depend on the processing

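The ratios were recomputed under 12 alternatives, 1 of them added after seeing the data (unnamed cells left out of all other cells). All 57 ratios of 2-fold or more stayed on the same side of 1 under every alternative run, and 42 stayed at 2-fold or more under each. A marker score of 1.5 left the chondrocyte-like, fibroblast-like and neutrophil-like cells unchanged, so it could not move the ratios between them or to all other cells. Of 1127 recomputed ratios, 361 moved beyond the counting interval of the reported value, and of 125 counts of genes at least 2-fold apart, 17 moved by over 1.5 times. For hypertrophic-like cells of MGJ (1 gene) the count was 3 with doublet calls kept and with unnamed clusters counted in their best list, 4 with at most 10% mitochondrial UMIs, at least 500 genes, Leiden resolution 0.5 or cells weighted equally, and 5 at resolution 2 or a marker score of 1.5. In MGJ2 (2 genes) it was 1 with each cell named by its highest marker score and 4 with unnamed clusters in their best list. For immature neutrophil-like cells of MGJ (2 genes) it was 1 with at least 500 genes, at resolution 0.5 or with mitochondrial, ribosomal and the 100 most abundant genes left out of the denominator, 4 with each library clustered on its own or cells named by their highest score, and 5 with unnamed clusters in their best list. In MGJ2 (4 genes) it was 2 with at most 10% mitochondrial UMIs. The cause of these changes was not tested. All 15 thinned shares recomputed at 1000 UMIs were lower, 10 of them beyond their interval. No paired analysis was possible because the labels give neither library a group. Depth limits the small classes, where intervals of Itga10, Itga11 and Itgb3 rest on few UMIs.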
